A study of Mus musculus with 2 samples.

Results

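The miR-30 family was described in microRNA sequencing of the intestine of mouse embryos. Its 6 members, Mir30a, Mir30b, Mir30c-1, Mir30c-2, Mir30d and Mir30e, were taken by gene name from the 1973 miRNA genes counted, and all 6 had a row in both libraries. The tissue was intestine of healthy B6NCrl embryos at embryonic day 16.5, pooled from males and females, with no treatment and no allele named in the labels. It gave 2 libraries of RNA under 30 bases, named as biological replicates 1 and 2 of 1 group. Replicate 2 pooled 41 embryos, and the labels give no number for the pool of replicate 1. The design holds no contrast between conditions, so the questions are how much of each member the fetal intestine held, how the members compared, and how far the replicates differed.

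A microRNA is a short RNA cut from one arm of a hairpin transcript, named 5p or 3p after the arm, and it guides silencing proteins to messenger RNAs. Its seed, bases 2 to 8, does most of the target pairing, so members of one family with one seed can act on many of the same targets. miR-30 miRNAs are found in many tissues, are known from epithelial and mesenchymal cells, and have been studied in epithelial-mesenchymal transition, autophagy and kidney development. Reads that match several places in the genome cannot be given to 1 gene, which bears on family members that carry the same mature sequence.

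The mature sequences show what the members share and where they part. RefSeq sequences on GRCm38.p6, the same assembly as mm10, were matched for 4 of the 6 members (Mir30a, Mir30c-1, Mir30c-2 and Mir30e) and for Mir384, and not for Mir30b and Mir30d. The 5p miRNAs below are written 5′ to 3′ with the seed in capitals.

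miR-30a-5p: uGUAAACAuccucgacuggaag

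miR-30e-5p: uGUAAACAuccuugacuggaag

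miR-30c-5p: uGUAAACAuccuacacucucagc

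miR-384-5p: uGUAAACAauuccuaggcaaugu

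All 4 sequences carry the seed GUAAACA. Of 1738 mature entries in the RefSeq table it stood at bases 2 to 8 in 5, which belong to Mir30a, Mir30e, Mir30c-1, Mir30c-2 and Mir384. Counted from 1 at the 5′ end, miR-30a-5p and miR-30e-5p differ by the single substitution C13U, with miR-30a first. miR-30c-5p keeps the first 12 bases of both and then differs from miR-30a-5p at 5 of the 22 positions compared. miR-384-5p starts with the same 8 bases as miR-30a-5p and is identical to it at 12 of the 22 positions compared.

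The 3p miRNAs split into 2 seed groups, again with the seed in capitals.

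miR-30a-3p: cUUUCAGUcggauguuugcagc

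miR-30e-3p: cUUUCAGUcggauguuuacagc

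miR-30c-1-3p: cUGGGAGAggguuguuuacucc

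miR-30c-2-3p: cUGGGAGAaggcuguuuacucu

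Among the entries searched, which held none of Mir30b or Mir30d, the seed UUUCAGU occurred only in those of Mir30a and Mir30e. These differ by the substitution G18A. Whether Mir30b or Mir30d carries this seed was not examined. The seed UGGGAGA was that of both miR-30c 3p entries and of miR-6958-5p. The substitutions from miR-30c-1-3p to miR-30c-2-3p were G9A, U12C and C22U, outside the seed. The reverse complement of the 5p seed, UGUUUAC, was searched on the strand of the mature miRNA. It stood in 3 of these 4 sequences, all but miR-30a-3p, and in no other of the 1738 entries (0.173% in all). Mir30b and Mir30d are again missing from these entries. The counts used here are per gene and do not separate the arms.

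The 6 genes lie in 3 pairs, each on 1 strand (mm10 coordinates, GENCODE M21 annotation). On the plus strand of chromosome 1, Mir30a (23272269 to 23272339) lies 19361 bases before Mir30c-2 (23291701 to 23291784), which is inside an exon of the long noncoding RNA Gm27028. No other annotated gene overlapped Mir30a. On the minus strand of chromosome 4, Mir30e (120772606 to 120772697) and Mir30c-1 (120769534 to 120769622) are 2983 bases apart. Both lie within the gene Nfyc, which encodes a subunit of the transcription factor NF-Y, on its strand and in no annotated exon of it, which places them in introns. On the minus strand of chromosome 15, Mir30d (68341208 to 68341289) and Mir30b (68337415 to 68337510) are 3697 bases apart. Mir30d is inside an exon of the noncoding RNA Gm20732 and overlaps an exon of Gm37296 by 9 bases. Mir30b overlaps an exon of the processed transcript Gm26621 by 16 bases.

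Replicate 1 held 4261976 counts on the strand of a miRNA gene and replicate 2 held 5680764. Levels are counts per 1e+06 of these totals (CPM), with the mean ± SD of the libraries (n = 2). A count of 0 allows up to 3 counts, which is 0.704 CPM in replicate 1 and 0.528 in replicate 2. Intervals are exact Clopper-Pearson 95% intervals. Intervals and limits cover counting error within a library only, not the spread between pools. Copies made by PCR could not be told apart and were counted as separate reads, so the intervals may be too narrow. Of the marker lists, the 6 intestinal epithelium genes were all detected in both libraries, with a summed level of 82554 CPM in replicate 1 and 97370 CPM in replicate 2. The smooth muscle and mesenchyme genes (4 of 4 detected) summed to 184936 and 177249 CPM. Of the neural list, 1 of the 4 genes with a row was detected in both libraries, Mir137 at 1421 and 1663 CPM. Mir124a-2 and Mir124a-3 were at 0 in both. Their sequences were not compared, and reads at several loci are outside all gene counts. These 0 counts therefore do not show that neural RNA was absent.

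Together the 6 members held 2.78% ± 0.140 of the counts (n = 2), 2.68% in replicate 1 and 2.87% in replicate 2. Among these reads, each placed at 1 locus, the sum came almost wholly from 1 gene of each pair. Mir30e, Mir30a and Mir30d made up 99.2% ± 0.118 of the family's counts, and Mir30b, Mir30c-1 and Mir30c-2 the rest.

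Mir30e, the Nfyc-intron gene, was the most abundant member. It stood at 15144 CPM in replicate 1 (interval 15028 to 15261) and 17384 CPM in replicate 2 (17277 to 17492), a mean of 16264 ± 1584 CPM (n = 2). This placed it at rank 18 of all genes by mean level, and at ranks 19 and 17 in the separate libraries.

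Mir30a came next, with 6170 CPM in replicate 1 and 6626 CPM in replicate 2 (6398 ± 323 CPM, n = 2, rank 33). Its 5p miRNA differs from that of Mir30e by 1 base, and Mir30e was 2.54 ± 0.12 times as abundant (2.45 and 2.62 times in replicates 1 and 2). The replicates of the 2 genes did not overlap.

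Mir30d, the leading gene on chromosome 15, had 5213 CPM in replicate 1 and 4530 CPM in replicate 2 (4872 ± 483 CPM, n = 2, rank 40). It was close to Mir30a: the ratio of Mir30a to Mir30d was 1.18 in replicate 1 and 1.46 in replicate 2 (1.32 ± 0.197). The order was the same in both libraries, and the lowest Mir30a value exceeded the highest Mir30d value.

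The other 3 members were far lower in reads placed at 1 locus. Mir30b, the neighbour of Mir30d, had 150.4 CPM in replicate 1 and 118 CPM in replicate 2, from 641 and 671 counts (134 ± 22.8 CPM, n = 2, rank 181). Mir30c-1, the neighbour of Mir30e, had 62.4 and 62.8 CPM from 266 and 357 counts (62.6 ± 0.305 CPM, rank 216). Mir30c-2, the neighbour of Mir30a, had 22.8 and 24.1 CPM from 97 and 137 counts (23.4 ± 0.960 CPM, rank 253).

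The order of all 6 members was the same in both libraries, and in each step down the order the values of the neighbours did not overlap. Per 100 bases of hairpin the order was the same, with 17678 CPM for Mir30e, 9011 for Mir30a and 5941 for Mir30d. The others followed at 139.9 (Mir30b), 70.4 (Mir30c-1) and 27.9 (Mir30c-2). The hairpins differ little in length, from 71 bases (Mir30a) to 96 (Mir30b), so this adds no separate support for the order. Mir384 was the only other gene with a row whose RefSeq entry carries the 5p seed. It lies on the minus strand of chromosome X (105344282 to 105344369) and had 24.2 and 21.5 CPM (22.8 ± 1.90 CPM, n = 2). It could not be ordered against Mir30c-2, which was lower than Mir384 in replicate 1 and higher in replicate 2, with overlapping intervals in each.

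**Figure D1:**
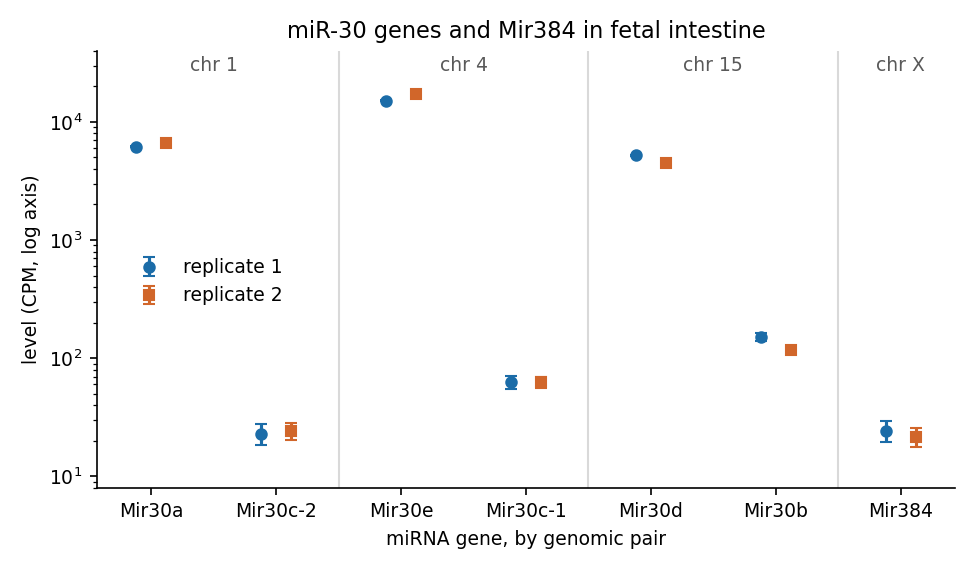
Level of each miR-30 gene and of Mir384 in CPM on a log axis, by genomic pair, with circles for replicate 1, squares for replicate 2 and exact 95% counting intervals as bars (narrower than the symbols at high counts). The first gene of each pair is at 4530 CPM or higher in both libraries, and the second is between 22.8 and 150.4 CPM.

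Among reads placed at 1 locus, every pair was thus led by 1 gene, by a factor that differed between pairs. The counts of Mir30c-1 and Mir30c-2 leave out reads that match both genes. The ratios on chromosomes 1 and 4 therefore do not compare miRNA content. Whether the ratio on chromosome 15 is affected likewise is unknown, since the sequences of Mir30b and Mir30d were not compared. Mir30a had 271 and 275 times the counts of Mir30c-2 in replicates 1 and 2 (273 ± 2.59, n = 2). Mir30e had 243 and 277 times those of Mir30c-1 (259.6 ± 24.0). Mir30d had 34.7 and 38.4 times those of Mir30b (36.5 ± 2.61). The ratios on chromosomes 1 and 4 differed from each other by less than the spread of the latter. That of chromosome 15 lay below both in each library, and its exact intervals (32.0 to 37.6 and 35.5 to 41.5) did not reach theirs, of which the lowest bound was 215.

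The low counts of Mir30c-1 and Mir30c-2 concern genes whose 5p miRNA is the same. Their hairpins are shown with the longest stretch they share in capitals. It covers the whole of miR-30c-5p and 5 bases after it, 28 bases in all, from base 17 to 44 of the Mir30c-1 hairpin and from base 14 to 41 of the Mir30c-2 hairpin.

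Mir30c-1: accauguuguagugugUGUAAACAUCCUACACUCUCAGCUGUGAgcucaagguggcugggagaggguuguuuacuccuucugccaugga

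Mir30c-2: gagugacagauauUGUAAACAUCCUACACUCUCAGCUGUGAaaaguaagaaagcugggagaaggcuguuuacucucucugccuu

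All 6 windows of 18 bases in miR-30c-5p occurred in the hairpin of the other gene. None of the windows in the 3p miRNAs of Mir30c-1 and Mir30c-2, or in either arm of Mir30a and Mir30e, occurred in another of the 1005 RefSeq hairpins searched. These hairpins did not include those of Mir30b and Mir30d. The search was for exact matches in hairpins only and not in the genome. The mismatches allowed when the reads were mapped are not known. The longest stretch of miR-30a-5p or miR-30e-5p found in another hairpin was 12 bases, and of their 3p miRNAs 17 bases. Reads that mapped to several loci, 26.2% of reads in replicate 1 and 25.7% in replicate 2, are outside all gene counts. How many of them belong to miR-30c-5p cannot be read from the tables, so the 62.6 and 23.4 CPM are levels of reads placed at 1 locus and not of miR-30c. Their part in the ratios within pairs was not tested.

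The levels in 3 other families that hold identical mature copies are given beside those of miR-30. In miR-26, Mir26b had 32837 ± 2540 CPM, against 38.3 ± 4.60 CPM for Mir26a-2 and 10.7 ± 0.251 CPM for Mir26a-1, which share miR-26a-5p. In miR-29, a family known to repress collagen genes, Mir29a had 99.3 ± 3.42 CPM and Mir29c 90.9 ± 11.4 CPM, while Mir29b-1 and Mir29b-2, which share miR-29b-3p, had 3 or 4 and 4 or 6 counts per library. In miR-181, Mir181c (3825 ± 189 CPM) and Mir181d (2635 ± 134 CPM) stood above the 4 genes with a shared 5p miRNA, which ranged from 14.1 CPM for Mir181b-1 to 773 CPM for Mir181a-1. In each of these 3 families, the highest gene with an identical copy was below the lowest gene without one, and in miR-30 Mir30c-1 and Mir30c-2 were below Mir30a and Mir30e. This order is not general: Mir16-1, known as a copy of Mir16-2 but not compared by sequence here, had 1124 and 1028 CPM in replicates 1 and 2, above the 771 and 736 CPM of Mir15b. No mature sequence of Mir30b or Mir30d was compared. Mir30b, at 134 CPM, had 1.88 to 2.41 times the counts of Mir30c-1, which leave out reads that also match Mir30c-2. miR-30 as a whole held less of the counts than miR-26 (3.29% ± 0.254) and more than miR-181 (0.794% ± 0.0564) or miR-29 (0.0192% ± 0.00149). The libraries of these families did not overlap. These are shares of reads placed at a single locus. How many reads each family lost at its identical copies is unknown, so the families cannot be ranked by their whole miRNA content.

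**Figure D2:**
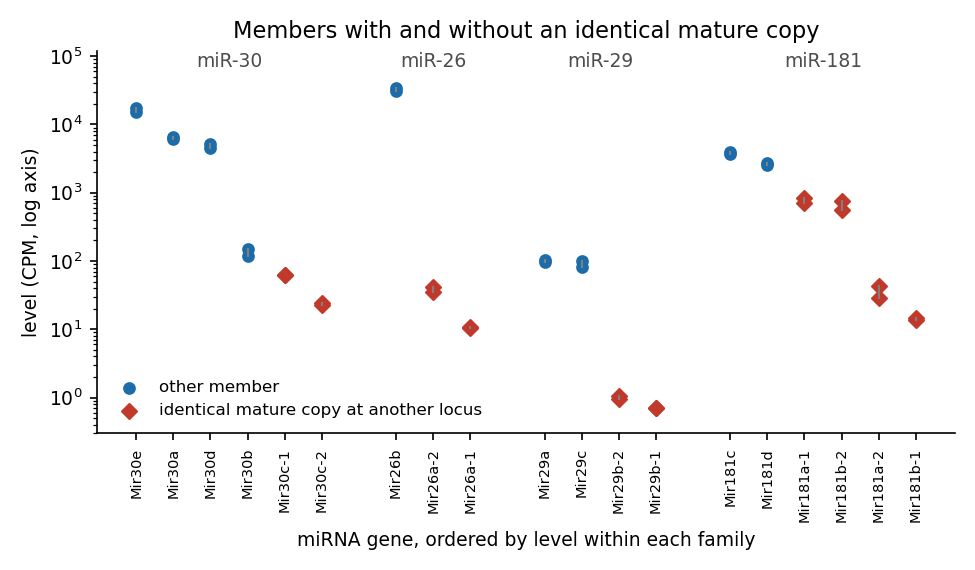
Level in CPM on a log axis of each gene of the miR-30, miR-26, miR-29 and miR-181 families, with 1 symbol per library. Diamonds are genes with an identical mature copy at another locus and circles the other members (the sequences of Mir30b and Mir30d were not compared); in each of the 4 families shown the diamonds lie below the circles, which does not hold for Mir16-1 and Mir15b (not shown).

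No read was detected on the opposite strand of the 6 members. The count of 0 at all 6 allows up to 0.704 CPM in replicate 1 and 0.528 in replicate 2. This covers Mir30f, annotated on the plus strand over the whole Mir30e hairpin and without a row of its own. Its mature miRNA is shown because it carries the 7 bases of the miR-30 seed at bases 1 to 7 and not 2 to 8; the capitals again mark its own bases 2 to 8.

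miR-30f: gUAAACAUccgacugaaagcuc

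It overlaps miR-30e-3p by 19 positions on the other strand. The 64544 and 98756 reads at Mir30e were all on the Mir30e strand.

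The replicates differed in the make-up of the family, which needs no scaling between libraries. The pair on chromosome 4 (Mir30e and Mir30c-1) held 56.8% of the family's counts in replicate 1 and 60.7% in replicate 2. The pair on chromosome 15 (Mir30d and Mir30b) held 20.04% and 16.2%. The pair on chromosome 1 (Mir30a and Mir30c-2) held 23.1% in both. The intervals of the chromosome 4 and 15 shares did not overlap between the libraries, and those of chromosome 1 did. All these intervals cover counting error only, so they do not show whether the shift exceeds the spread between pools.

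**Figure D3:**
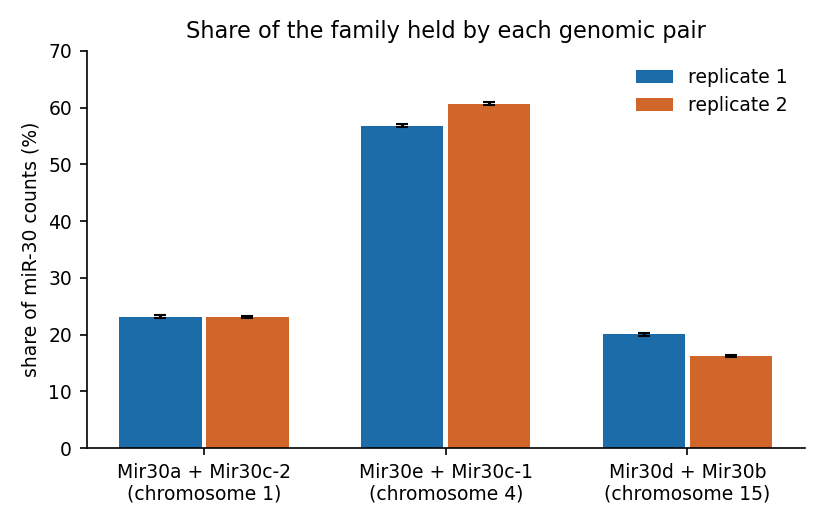
Share of all miR-30 counts held by each genomic pair, in percent, with 1 bar per library and exact 95% counting intervals. The chromosome 4 pair is higher in replicate 2, the chromosome 15 pair is higher in replicate 1 and the chromosome 1 pair is level at 23.1%.

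Ratios between members of different pairs showed the same shift. Mir30e had 2.91 times the counts of Mir30d in replicate 1 (interval 2.86 to 2.95) and 3.84 times in replicate 2 (3.79 to 3.89). Mir30e had 101 and 147 times the counts of Mir30b, with intervals of 93.2 to 109 and 136 to 159. Both genes of chromosome 15 were thus lower against Mir30e in replicate 2.

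Between libraries, Mir30e and Mir30a were higher in replicate 2, and Mir30d and Mir30b were higher in replicate 1. Each gene with at least 20 counts summed was set against counting error with an exact two-sided binomial test, after TMM scaling of the libraries and with Benjamini-Hochberg adjustment over 364 genes. All 6 members reached that minimum. The log2 ratio of replicate 2 to replicate 1 was 0.33 for Mir30e (interval 0.31 to 0.34), with an adjusted p of the exact test too small to be represented. For Mir30a it was 0.23 (0.21 to 0.26, adjusted p of the exact test 5.71e-89). For Mir30d it was -0.07 (-0.10 to -0.05, adjusted p of the exact test 1.42e-07), and for Mir30b -0.22 (-0.38 to -0.06, adjusted p of the exact test 0.0133).

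Mir30c-1 and Mir30c-2 did not pass. Their log2 ratios were 0.14 (-0.09 to 0.37) and 0.21 (-0.17 to 0.60), with adjusted p of the exact test 0.335 and 0.388. The point values of each pair had 1 sign, positive on chromosomes 1 and 4 and negative on chromosome 15. The intervals of Mir30c-1 and Mir30c-2 span both signs, so agreement within the pairs of chromosomes 1 and 4 is not settled. Mir384 did not pass either (-0.04, -0.43 to 0.35).

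With 2 members higher in replicate 2 and 2 higher in replicate 1, the family is to be read against a background in which passing was common. Of the 364 genes, 51.9% passed, 24.5% as higher in replicate 2 and 27.5% as higher in replicate 1. The median log2 ratio was 0.17 over the 6 members and -0.02 over all genes. When the libraries were scaled by their totals alone, which lowers every log2 ratio by 0.13, Mir30e (0.20) and Mir30a (0.10) still passed as higher in replicate 2, and Mir30d (-0.20) and Mir30b (-0.35) as higher in replicate 1. The background was then 12.6% and 45.1%, and the medians 0.05 and -0.15.

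**Figure D4:**
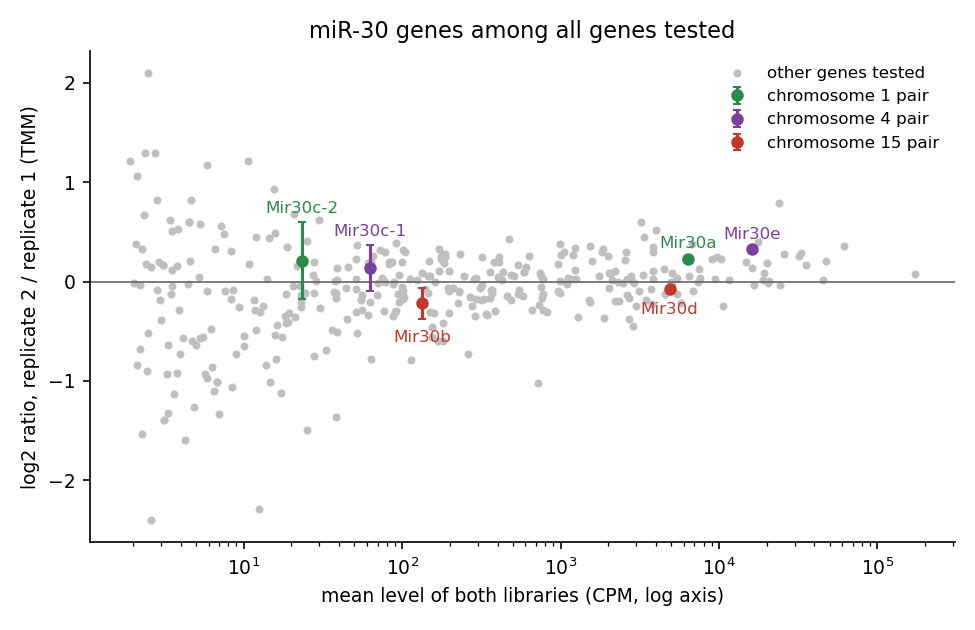
Log2 ratio of replicate 2 to replicate 1 after TMM scaling against the mean level in CPM (log axis) for the 364 genes tested, with the 6 miR-30 genes coloured by genomic pair and exact 95% counting intervals as bars. Mir30e and Mir30a lie above 0 at 0.33 and 0.23, and Mir30d and Mir30b lie below it at -0.07 and -0.22, all within the range of the other genes.

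Marker levels also differed between the libraries. On total counts, the summed level of the epithelial list had a log2 ratio of 0.24, to which Mir215 contributed most (0.66). The median of its 6 genes was 0.13: 4 passed as higher in replicate 2, Mir192 (-0.0024) failed the test, and Mir200c (-0.04) passed as higher in replicate 1. The other summed log2 ratios were -0.06 for smooth muscle and mesenchyme, -0.17 for endocrine, 0.13 for endothelium and -0.21 for blood. Those of liver and striated muscle were -1.15 and 0.19. For neural it was 0.23, almost wholly from Mir137. For pancreas it was 2.02, from 1.17 and 4.75 CPM. The part of tissue make-up in the replicate differences was not tested. In bulk tissue, fewer cells of a type and less RNA per cell cannot be told apart. The test sets 2 libraries against counting error, not against the spread between pools, and no member reached a 1.5-fold difference. With no minimum count, Mir30d (adjusted p of the exact test 0.0512) and Mir30b (0.0934) no longer passed.

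Genes nearest in level were found by the mean absolute difference in log2(CPM + 1) over the 2 libraries, which are too few to speak of a shared pattern. Nearest to Mir30e were Mir322 (16201 ± 76.2 CPM, a difference of 0.09) and Mir21a (17628 ± 2335 CPM, 0.11). Nearest to Mir30a were Mir203, a miRNA of epidermis and other epithelia (6762 ± 810 CPM, 0.08), and Mir487b (6443 ± 239 CPM, 0.09). Mir130b (4944 ± 329 CPM, 0.03) and Mir744 (5020 ± 408 CPM, 0.04) were nearest to Mir30d. Both were lower in replicate 2 in CPM, as was the median of all genes tested (log2 ratio -0.15 on total counts). Mir222 (139 ± 13.6 CPM) and Gm23935 (125 ± 7.06 CPM) were nearest to Mir30b, Mir301b (64.0 ± 2.30 CPM) and Mir206 (61.0 ± 1.63 CPM) to Mir30c-1, and Mir450-1 (25.2 ± 3.45 CPM) and Mir3105 (21.8 ± 0.295 CPM) to Mir30c-2.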

How the data were processed

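For each library the authors deposited a table of raw counts by miRNA gene, on mm10 with GENCODE annotation M4, per the deposited readme. No aligner, counter or trimming step is named in the sources used here. Each table has 3 count columns with no names. In every gene row the last 2 sum to the first, so the first was taken as unstranded. The middle column, which holds 96.2% and 96.3% of it in replicates 1 and 2, was taken as the strand of the gene. Totals leave out the rows that are no gene: 19.5% and 17.2% unmapped, 26.2% and 25.7% at several loci, and 3.69% and 2.88% outside genes in replicates 1 and 2. Of all reads (8747512 and 10876035), 48.7% and 52.2% were counted on the strand of a gene.

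CPM was computed from the middle column. GENCODE M21 gave names to 1894 of 1973 identifiers. A single group leaves no contrast for edgeR's quasi-likelihood test, so the replicates were compared with the exact binomial test. Scaling used edgeR 4.0.16 (TMM) or DESeq2 1.42.0 (size factors), and log2 ratios a prior of 0.5 counts. Other work used R 4.3.3, Python 3.11.15, scipy 1.17.1, numpy 2.4.6 and pandas 2.3.3. Members, lists and tests were chosen with earlier results of these data known. The genes named are the members, genes with their 5p seed, the families miR-26, miR-29 and miR-181, the marker lists, and for each member the 2 genes nearest in level. Marker lists also covered endocrine, endothelial, blood, liver, striated muscle and pancreas genes. The comparison of shares and ratios between pairs, and of the hairpins, was chosen after seeing the data. The labels name biological replicates from separate tissue samples.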

Additional observations from a re-analysis of the deposited data

How the results depend on the processing

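The family's share of the counts (2.78%) became 3.36% when the total omitted the most abundant gene and 1.40% with all reads as the total, as the changed totals dictate, and each replicate alone gave 2.68% and 2.87%. The 3 ratios within pairs are the same with unstranded counts, since no member had reads on the opposite strand, and with 2 libraries each alone only gives the values already reported. Of 36 alternatives to the members' log2 ratios, 34 kept the direction and the side of the threshold. The exceptions were Mir30d (-0.03) and Mir30b (-0.18) with no minimum count, where 716 genes were tested and the TMM shift was 0.17 in place of 0.13, so that 0 members were higher in replicate 1. With a 1.5-fold minimum 0 members passed in either direction, and 9 genes were higher in replicate 2 and 31 in replicate 1. Total counts gave 46 and 164 in place of 89 and 100. No paired analysis was possible because both libraries form 1 group. Depth limits Mir30c-1, Mir30c-2 and Mir384, whose counts per library were between 97 and 357.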
